A study of Mus musculus with 12 samples.

Results

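Transcripts of 10 genes used to recognise blood vessel endothelium were followed in 3 fractions of mouse kidney tubules. The genes were Kdr, Tek, Eng, Cdh5, Cldn5, Pecam1, Emcn, Plvap, Ehd3 and Gja5, and every non-control probe that carried one of these gene names on the array was taken, each probe on its own. These are 10 of the 27745 gene names on the array, read by 17 of its 41174 probes, and 15 of these probes were bright enough to test, among 25819 tested probes in all. Tubules in suspension were passed through COPAS, a sorter for large particles. They came from 2 females, called mice 1 and 3 here, and 2 males, called mice 2 and 4. The EGFP+ fraction held tubules with green fluorescence, which the series' design text calls distal convoluted tubules (DCT), the EGFP- fraction held tubules without it, and ALL was the total fraction. Each mouse gave 1 array per fraction, so n = 4 mice per fraction and 12 arrays in all. The labels give neither the strain nor the age of the mice, nor the transgene that made tubules fluoresce.

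Endothelial cells line the blood vessels, and in the kidney they form the glomerular tuft, the arterioles and the peritubular capillaries that run beside the tubules. They carry receptors for the growth factors VEGF and angiopoietin and for ligands of the TGF-beta family, and they hold together through their own cadherin, claudin and immunoglobulin-type adhesion proteins. Glomerular and peritubular capillaries are both fenestrated, and the protein of Plvap builds the diaphragms that span the fenestrae of peritubular but not of mature glomerular capillaries.

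Levels are the log2 processed signal of a probe minus the 75th percentile of its array, so a level of 0 is that array's upper quartile. Levels of different probes are not compared with each other, because probes differ in how brightly they report. The 75th percentile itself was 922 on the dimmest array and 2270 on the brightest. The scanner software marked 53.9% to 65.6% of an array's probes as well above background. The lowest 75th percentiles in the ALL and EGFP- fractions, 922 and 1007, and in the EGFP+ fraction, 1170, were those of mouse 4. The label of the EGFP+ fraction was checked on 6 DCT genes: all of them were higher in EGFP+ than in EGFP- tubules, with a median difference of 6.65, among them Slc12a3, the thiazide-sensitive sodium chloride cotransporter, at 8.37, and Pvalb, the calcium buffer parvalbumin, at least 781-fold higher. The arrays lay on 3 slides, each of which held all 3 fractions but mixed different mice.

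Several of the 10 genes were covered by more than 1 probe, and these did not all give the same answer, so the sequences and positions of the probes concerned are shown first. Each probe is 60 bases long. Probes built on a RefSeq messenger RNA are given by their first 30 bases and probes built on a cloned cDNA in full, as the scanner files list them, in the sense of the target and with the longest run of A and T among the printed bases in capitals. Positions are in the mm8 mouse build, per the file headers, and no gene annotation of that build was used, so exons and introns are not named. The 4 probes for Gja5 carry the widest spread of results. A_52_P525317 (chr3:97138831-97138890) and A_51_P333216 (chr3:97136450-97136509) were built on the same messenger RNA, A_52_P496163 (chr3:97161599-97161658) lies 22.7 kb beyond the first of these, and A_52_P612636 (chr3:98497154-98497213) lies 1358.3 kb away from it, so that its tie to the gene rests on the name in the array files alone.
Gja5 A_52_P525317: ccgacactggcacTAAgactctctgttctg
Gja5 A_51_P333216: agatgggaagATTgtcctccagggcaccct
Gja5 A_52_P496163: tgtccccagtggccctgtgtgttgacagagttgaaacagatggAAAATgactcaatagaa
Gja5 A_52_P612636: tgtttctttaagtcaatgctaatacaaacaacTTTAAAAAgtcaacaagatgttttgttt
The last of these had 25% G and C, the lowest of the 17 probes, whose content otherwise lay between 35.0% and 55.0%.

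Kdr, Tek and Pecam1 each had 1 probe on the RefSeq messenger RNA and 1 on a cloned cDNA, and these are shown because the cDNA probe gave a smaller difference or was too dim to test. The pair for Kdr, A_51_P316553 (chr5:76214981-76215040, minus strand) and A_52_P478193 (chr5:76243311-76243370, minus strand), lies 28.3 kb apart. The pair for Tek, A_51_P130374 (chr4:94366188-94366246) and A_52_P234087 (chr4:94233814-94233873), lies 132.3 kb apart. The Pecam1 probe A_51_P400868 matches chr11:106497165-106499018 on the minus strand in separate pieces over 1854 bases, and A_52_P349070 (chr11:106497834-106497893, minus strand) falls inside that stretch. Plvap is shown because it was the one gene of the 10 without a called difference in the main fit, which did not pair the arrays by mouse.
Kdr A_51_P316553: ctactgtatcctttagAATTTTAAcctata
Kdr A_52_P478193: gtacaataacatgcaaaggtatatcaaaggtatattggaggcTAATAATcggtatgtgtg
Tek A_51_P130374: ctctaatgtgactgTATATActgctcggag
Tek A_52_P234087: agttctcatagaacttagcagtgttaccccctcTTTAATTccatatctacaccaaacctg
Pecam1 A_51_P400868: aacagcgagaagATTTctgagcctagtgtg
Pecam1 A_52_P349070: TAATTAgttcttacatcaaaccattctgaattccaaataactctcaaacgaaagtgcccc
Plvap A_51_P414653: tttccagcctccctcTTAAAggccactagg
The Kdr probe A_52_P478193 and the Pecam1 probe A_52_P349070 were well above background on 0 of 12 arrays and were the members left out of the tests. The array files describe the clone behind the latter by the product of another gene, a disintegrin and metalloprotease, so its tie to Pecam1 rests on the gene name they give it.

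EGFP+ tubules held far less endothelial transcript than the EGFP- tubules of the same kidneys. Of the 15 tested probes, 13 were lower in EGFP+ at an adjusted p under 0.05 (limma, Benjamini-Hochberg over all tested probes) and 0 were higher, where 23.9% of all tested probes were lower and 32.8% higher. At least 1 probe of 9 of the 10 genes was lower, the exception being Plvap in this fit, which did not pair the arrays by mouse. With the mouse as a block in the limma fit, Plvap was lower as well (adjusted p = 0.0043). The 4 EGFP+ arrays lay below all 4 EGFP- arrays for 12 of the 15 probes, against 23.4% of all tested probes. The 13 and the 12 both include Gja5 A_51_P333216, which no EGFP+ array measured above background. Without that probe, 12 of 14 passed as lower. The median difference over the 15 probes was -3.26 on the log2 scale, while it was 0.14 over all tested probes. Another background correction, normexp, started from the raw spot and background signals and added an offset of 50 to the corrected signal. With it 10 probes were lower and the median was -1.99. In these bulk samples, fewer endothelial cells and less RNA per endothelial cell cannot be told apart.

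**Figure D1:**
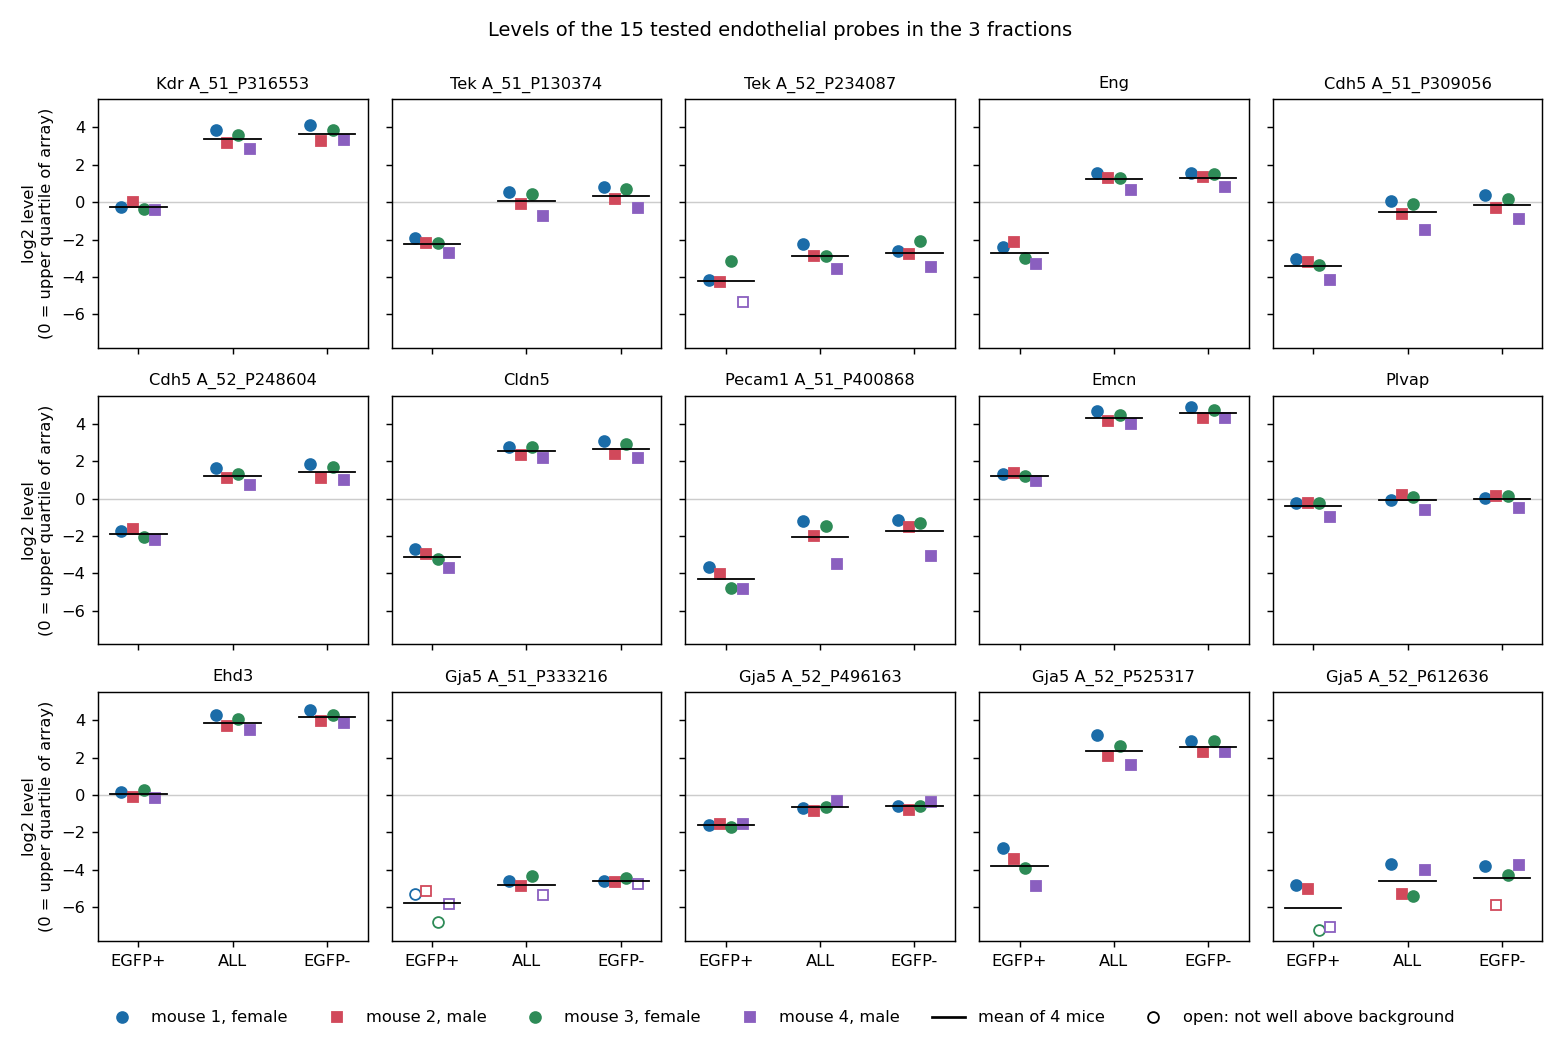
Levels of the 15 tested probes (log2, where 0 is the upper quartile of the array) in EGFP+, ALL and EGFP- tubules, 1 point per mouse, with open symbols for arrays on which the probe was not well above background and a line at the mean of 4 mice. EGFP+ points lay below all EGFP- points in 12 of 15 panels, among them Gja5 A_51_P333216, whose EGFP+ points are all open. The Plvap panel was close to flat, with EGFP+ lower than EGFP- within each mouse.

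Among the receptors, Kdr, the main signalling receptor for VEGF on endothelium, was read by A_51_P316553, which the array carried in 10 copies. Its levels in EGFP+ tubules of mice 1 to 4 were -0.24, -0.0038, -0.37 and -0.43. In ALL they were 3.85, 3.15, 3.58 and 2.83, and in EGFP- 4.14, 3.29, 3.87 and 3.29. The EGFP+ arrays stood apart from the other 8, which overlapped each other. Kdr was 15.01-fold lower in EGFP+ than in EGFP- tubules (difference -3.91 ± 0.25, SE of the limma fit, n = 4 mice per fraction, adjusted p = 9.21e-08), and the per-mouse EGFP+ signal was 4.81%, 10.2%, 5.27% and 7.59% of the EGFP- signal.

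Tek, the receptor for angiopoietins, was read by both of its probes. With A_51_P130374 the EGFP+ levels were -1.94, -2.16, -2.21 and -2.71 in mice 1 to 4, the ALL levels 0.54, -0.10, 0.43 and -0.73, and the EGFP- levels 0.80, 0.17, 0.72 and -0.34. EGFP+ was lowest in every mouse, and mouse 4 was lowest within each fraction. The difference was 6.04-fold (-2.59 ± 0.32, adjusted p = 2.54e-05 by limma). The dimmer A_52_P234087 gave -4.17, -4.25, -3.17 and -5.33 in EGFP+, -2.24, -2.90, -2.87 and -3.56 in ALL, and -2.63, -2.76, -2.06 and -3.46 in EGFP-. Here the fractions overlapped between mice, although EGFP+ was lower within each of the 4 mice, and the probe was not well above background on the EGFP+ array of mouse 4. Its difference was -1.50 ± 0.44 (2.83-fold lower, limma adjusted p = 0.0113). The call, though not the size, was lost without mouse 2 (-1.51, adjusted p = 0.0648), and both were lost with normexp (-0.15, adjusted p = 0.766).

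Eng, endoglin, a co-receptor for TGF-beta family ligands that endothelial cells carry in large amounts, followed Kdr. Its levels were -2.41, -2.13, -2.97 and -3.31 in EGFP+ tubules, 1.58, 1.28, 1.29 and 0.67 in ALL, and 1.55, 1.36, 1.51 and 0.80 in EGFP-. All 4 EGFP+ arrays were below the other 8. Eng was 16.1-fold lower in EGFP+ than in EGFP- (-4.01 ± 0.28, adjusted p = 2.01e-07 by limma).

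The genes of endothelial junctions and adhesion were lower as well. Cldn5, the claudin of endothelial tight junctions, had the largest difference of the 9 genes other than Gja5. It stood at -2.67, -2.96, -3.22 and -3.69 in EGFP+ tubules of mice 1 to 4, at 2.77, 2.33, 2.77 and 2.18 in ALL, and at 3.09, 2.39, 2.91 and 2.17 in EGFP-. The lowest array outside EGFP+ was thus far above the highest EGFP+ array. In EGFP+ the signal was 54.8-fold lower than in EGFP- (95% confidence interval 37.0 to 81.1, limma adjusted p = 7.25e-09), or 1.85%, 2.45%, 1.42% and 1.73% of it in mice 1 to 4.

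Cdh5, the cadherin of endothelial adherens junctions, was read by 2 probes lying 0.6 kb apart. With A_51_P309056 the levels were -3.05, -3.20, -3.34 and -4.14 in EGFP+, 0.08, -0.66, -0.12 and -1.49 in ALL, and 0.39, -0.33, 0.18 and -0.91 in EGFP-. With A_52_P248604 they were -1.72, -1.62, -2.06 and -2.21 in EGFP+, 1.65, 1.08, 1.32 and 0.72 in ALL, and 1.83, 1.11, 1.71 and 0.98 in EGFP-. Both probes placed the 4 EGFP+ arrays below all others. The differences between EGFP+ and EGFP- were close, -3.26 ± 0.38 (9.60-fold, limma adjusted p = 1.7e-05) for the first and -3.31 ± 0.25 (9.91-fold, limma adjusted p = 3.48e-07) for the second.

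Pecam1, the adhesion protein CD31, varied more between mice. Its A_51_P400868 levels were -3.64, -4.04, -4.78 and -4.82 in EGFP+, -1.23, -1.99, -1.46 and -3.48 in ALL, and -1.14, -1.54, -1.31 and -3.05 in EGFP-. EGFP+ was below the others throughout, and mouse 4 was well below the other mice in ALL and EGFP-. The 5.90-fold difference (-2.56 ± 0.53, limma adjusted p = 0.00148) was not past the threshold with normexp background correction (-0.95, adjusted p = 0.0767).

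Among proteins of the capillary surface, Emcn, the sialomucin endomucin of capillaries and veins, was measured at 1.30, 1.36, 1.21 and 0.94 in EGFP+, 4.66, 4.12, 4.46 and 4.00 in ALL, and 4.89, 4.28, 4.70 and 4.29 in EGFP-. The EGFP+ arrays formed a tight group with a spread of 0.19 (SD, n = 4 mice), separate from the rest. Emcn was 10.1-fold lower in EGFP+ than in EGFP- (-3.34 ± 0.19, adjusted p = 3.38e-08 by limma).

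Plvap, the diaphragm protein of fenestrae, stood apart from Emcn. Its levels were -0.23, -0.25, -0.24 and -0.99 in EGFP+ tubules of mice 1 to 4, -0.09, 0.19, 0.10 and -0.62 in ALL, and 0.04, 0.13, 0.16 and -0.52 in EGFP-. The 3 fractions overlapped, mouse 4 was lowest in each, and within every mouse EGFP+ was lower than both other fractions. The EGFP+ signal was 83.0%, 76.9%, 75.8% and 72.5% of the EGFP- signal of the same mouse, a difference of -0.38 ± 0.23 (95% confidence interval -0.89 to 0.13, limma adjusted p = 0.189). With the mouse as a block in the fit, which removes the offset shared by a mouse's arrays, the same difference passed the threshold (adjusted p = 0.0043), as it did with the slide as a block (-0.50, adjusted p = 0.0272) and without mouse 4 (-0.35, adjusted p = 0.0257). Within the 3 slides the difference was -0.28, -0.37 and -0.80.

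The Plvap deficit was set against that of each other member, mouse by mouse. Plvap was picked after its values were seen, as its mean difference was the smallest of the 15 probes. The direction of this comparison on the same arrays was thus largely fixed in advance. Only A_51_P414653 read Plvap, so the gene and the response of its probe cannot be told apart. Gja5 A_51_P333216, which no EGFP+ array measured above background, was left out. The Plvap deficit was the smaller one in all 4 mice beside 12 of the 13 remaining probes, and in 3 of 4 beside Gja5 A_52_P612636. The mean gap ran from 0.65 beside Gja5 A_52_P496163 to 5.98 beside Gja5 A_52_P525317 on the log2 scale. With 4 mice an exact two-sided sign-flip permutation test cannot go below p = 0.125, and that was the value for each of the 12 (0.135 after Benjamini-Hochberg adjustment over the 13 comparisons).

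Ehd3, a membrane-traffic protein that is a marker of glomerular endothelium, was measured at 0.18, -0.10, 0.24 and -0.16 in EGFP+, 4.26, 3.69, 4.06 and 3.44 in ALL, and 4.51, 3.95, 4.28 and 3.87 in EGFP-. The EGFP+ arrays were separate from the other 8 and close to each other. Ehd3 was 17.3-fold lower in EGFP+ (-4.11 ± 0.20, adjusted p = 1.29e-08 by limma), and the share of the EGFP- signal was 4.96%, 6.07%, 6.06% and 6.13% in the 4 mice.

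Gja5 encodes connexin 40, the gap junction protein of arterial endothelium and of renin cells, and its 4 probes disagreed on size. With A_52_P525317 the levels were -2.86, -3.45, -3.92 and -4.87 in EGFP+, 3.18, 2.09, 2.61 and 1.58 in ALL, and 2.88, 2.27, 2.88 and 2.30 in EGFP-. The EGFP+ arrays were far below the others, and the difference of -6.36 ± 0.42 (limma adjusted p = 1.36e-07) was the largest of the 15 probes. With A_52_P496163 the levels were -1.62, -1.53, -1.73 and -1.57 in EGFP+, -0.68, -0.87, -0.64 and -0.34 in ALL, and -0.59, -0.83, -0.60 and -0.35 in EGFP-. These groups did not overlap either, but the difference was 2.03-fold (-1.02 ± 0.14, limma adjusted p = 4.95e-05).

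The remaining Gja5 probes were dim. A_51_P333216, on the same messenger RNA as A_52_P525317, read -5.31, -5.12, -6.78 and -5.84 in EGFP+, -4.61, -4.86, -4.32 and -5.34 in ALL, and -4.57, -4.66, -4.43 and -4.76 in EGFP-. It cleared background on 0 of 4 EGFP+ arrays and on 3 of 4 arrays of each other fraction, so the EGFP+ value is a bound. It was at least 1.46-fold lower in EGFP+ than in EGFP-. The adjusted p of the fit (0.00959 by limma) belongs to the measured difference of -1.16, not to the bound, and with normexp the sign turned (0.75, adjusted p = 0.213). The probe passed the filter only through the ALL and EGFP- arrays, where it was brighter, and without it 12 of 14 member probes were lower in EGFP+ than in EGFP-. The bound sets the EGFP- mean against, on each EGFP+ array, the higher of the probe's own signal and the lowest signal called well above background. A_52_P612636 read -4.82, -5.04, -7.19 and -7.06 in EGFP+, -3.69, -5.30, -5.37 and -3.99 in ALL, and -3.79, -5.90, -4.27 and -3.74 in EGFP-. EGFP+ was lower in 3 of 4 mice and higher in mouse 2, and the difference of -1.60 ± 0.67 was not past the threshold (limma adjusted p = 0.0607). It passed with the mouse as a block (adjusted p = 0.0409), with the slide as a block (adjusted p = 0.0012) and without mouse 2 (adjusted p = 0.0162), and with normexp its sign turned (0.46, adjusted p = 0.397).

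**Figure D2:**
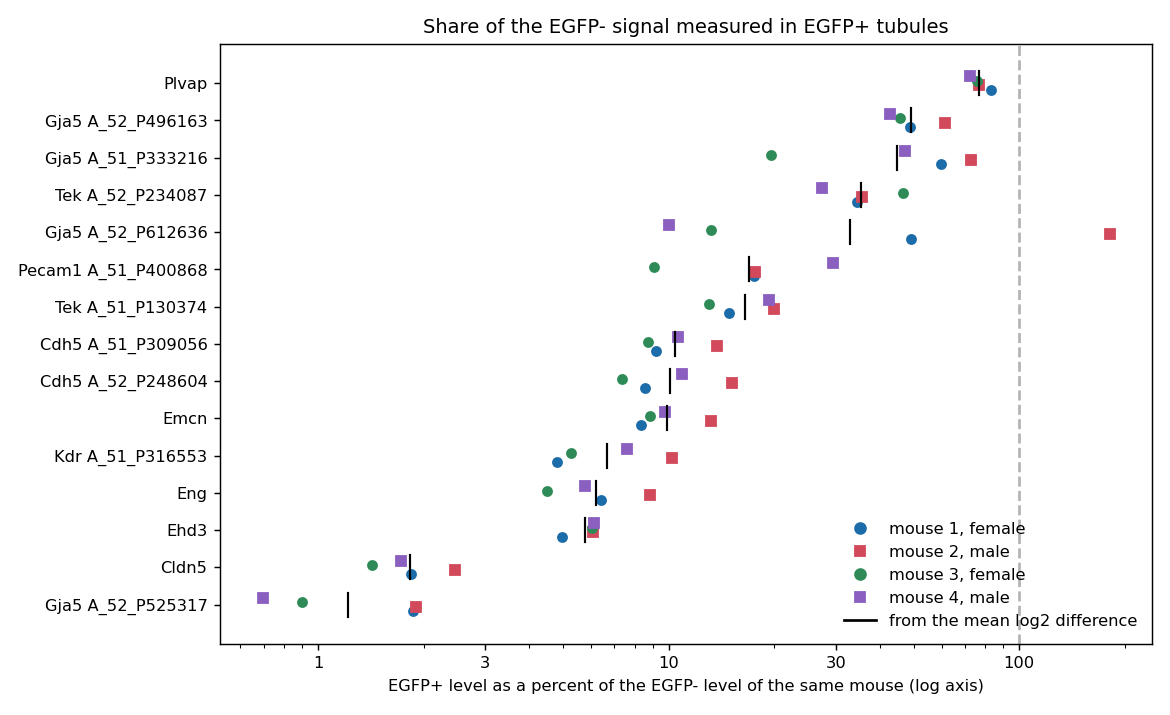
EGFP+ signal as a percent of the EGFP- signal of the same mouse (log axis) for each tested probe, 1 point per mouse, with a line at the value from the mean log2 difference and a dashed line at 100. Plvap lay between 72.5% and 83.0%, Cldn5 between 1.42% and 2.45%, and the 4 Gja5 probes were spread over most of the axis.

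The same pattern was present in each mouse and on each slide. The median difference over the 15 probes was -3.44, -2.73, -3.50 and -3.23 in mice 1 to 4, and -3.50, -3.07 and -3.55 within the 3 slides. As the slides mixed mice, a slide's difference is not one within a mouse. On slide 2 the EGFP+ array came from female mouse 3 and the EGFP- array from male mouse 2. Every one of the 15 probes was lower in EGFP+ within all 3 slides, and 14 of them were lower within all 4 mice, the exception being Gja5 A_52_P612636. The shares of all tested probes lower in every slide or every mouse were not computed. The 15 include Gja5 A_51_P333216, which no EGFP+ array measured above background. Of the 60 pairs of probe and mouse, 59 were lower in EGFP+, where 43% of all pairs over the tested probes were.

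Against the total fraction, EGFP+ tubules gave the same split of members. Of the 15 probes 13 were lower in EGFP+ than in ALL (22.9% of all tested probes were lower and 31.1% higher), 0 were higher, and Plvap (-0.32 ± 0.23, limma adjusted p = 0.267) and Gja5 A_52_P612636 (-1.44 ± 0.67, limma adjusted p = 0.0906) did not pass. With the mouse as a block Plvap passed here too (adjusted p = 0.0104). The EGFP+ arrays lay below all ALL arrays for 11 probes (21.8% of all tested probes), and the median difference was -2.88 against 0.13 over all tested probes. In this comparison 2 calls were lost when a mouse was left out. That of Tek A_52_P234087 (-1.34, adjusted p = 0.0218) was lost without mouse 1 (-1.14, adjusted p = 0.118) or mouse 2 (-1.33, adjusted p = 0.0988). Gja5 A_51_P333216, at least 1.29-fold lower, had a measured difference of -0.98 (adjusted p = 0.0239), and its call was lost without mouse 1 (-1.07, adjusted p = 0.0593) or mouse 3 (-0.48, adjusted p = 0.133). Without Gja5 A_51_P333216, which no EGFP+ array measured above background, 12 of 14 member probes were lower in EGFP+ than in ALL, with a median of -2.99. This comparison shares the EGFP+ arrays with the one before it.

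The mean endothelial levels of ALL and EGFP- tubules lay close together, although the intervals of some probes were wide. None of the 15 probes passed the threshold by limma, and 0 had an unadjusted p under 0.05. Of all tested probes 1.08% passed in either direction, 0.00387% were lower in ALL, and 3.66% had an unadjusted p under 0.05. The 15 mean differences, ALL minus EGFP-, were all below 0, from -0.38 for Cdh5 A_51_P309056 to -0.04 for Gja5 A_52_P496163, with a median of -0.21 against 0.00 over all tested probes. Of the 60 pairs of probe and mouse 51 were lower in ALL (48.6% over all tested probes), and 7 probes were lower in all 4 mice. The sign was less regular within slides, where the median was -0.13, 0.01 and -0.63 and only 4 probes were lower in all 3. The shares of all tested probes lower in every mouse or every slide were not computed here either. For Ehd3 the interval of the ALL minus EGFP- difference in this fit ran from -0.73 to 0.15, and for Cldn5 from -0.69 to 0.44. The widest was that of Gja5 A_52_P612636, from -1.63 to 1.31, and for Pecam1 A_51_P400868 it ran from -1.45 to 0.89. With the mouse as a block 0 of the 15 probes passed as well, while 3 had an unadjusted p under 0.05 (5.57% of all tested probes). These were Ehd3 (adjusted p = 0.476), Cdh5 A_51_P309056 (0.543) and Tek A_51_P130374 (0.86), named after their values were seen. The difference of Ehd3 was -0.26, -0.26, -0.22 and -0.43 in mice 1 to 4, and that of Tek A_51_P130374 was -0.26, -0.27, -0.30 and -0.38, so both were lower in ALL in each mouse.

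**Figure D3:**
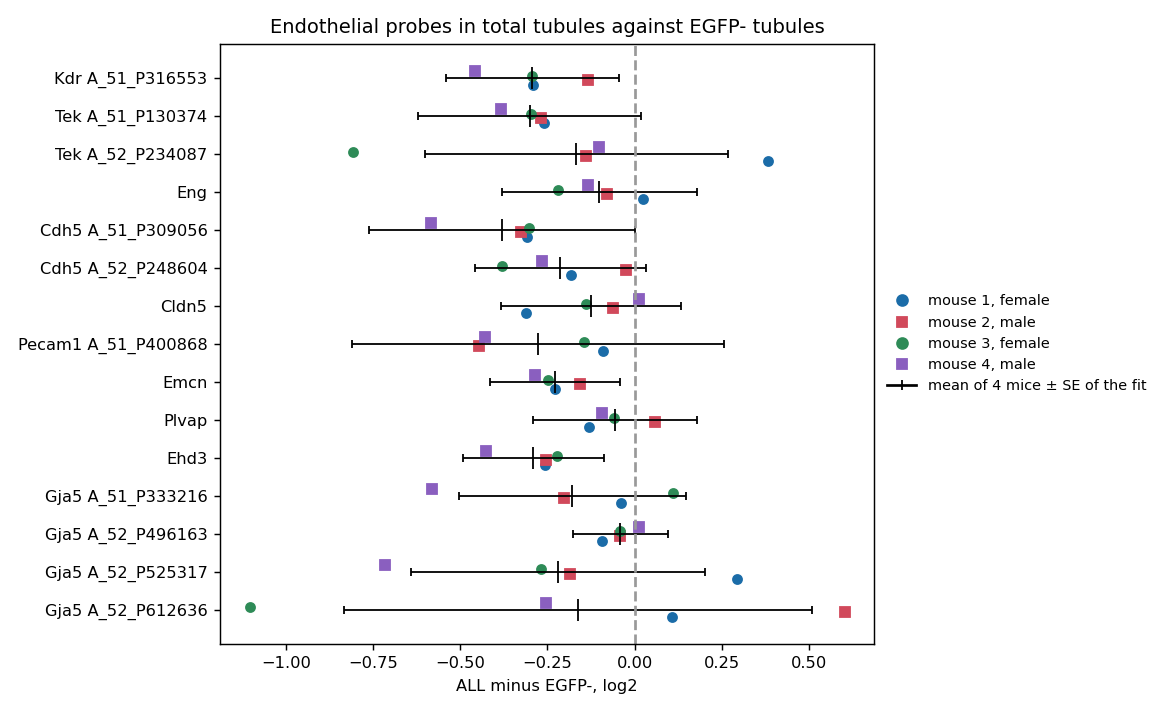
ALL minus EGFP- (log2) for each tested probe, 1 point per mouse, with the mean of 4 mice and the SE of the fit. All 15 means lay between -0.38 and -0.04, and 51 of the 60 points were below 0.

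Other endothelial genes were described from lists of known markers, counted over the genes whose probe could be tested. Of 10 further receptors 8 were lower in EGFP+ than in EGFP-, with a median of -2.36. The largest differences were those of Ptprb, the vascular phosphatase that acts on Tek (-3.33), Notch4, an endothelial Notch receptor (-2.75), and Acvrl1, the receptor kinase ALK1 that works with endoglin (-2.73). Ramp2, which forms the adrenomedullin receptor with Calcrl, was 1.75-fold higher in EGFP+ (0.81 ± 0.24, limma adjusted p = 0.012). That call was lost without mouse 2 (adjusted p = 0.0509) or mouse 3 (0.097), although Ramp2 was higher in each of the 4 mice. Aplnr, the apelin receptor, stood at 0.47 (adjusted p = 0.29), Flt4 was too dim to test, and no probe was found for S1pr1. Summed over the 10 receptors, Ramp2 included, the EGFP+ signal was 56.8%, 92.8%, 94.9% and 99.2% of the EGFP- signal in mice 1 to 4. With normexp 8 receptors were lower as well, and Acvrl1 was at -1.07 (adjusted p = 0.0123).

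All 10 surface and secreted endothelial genes were lower in EGFP+, with a median of -3.00. They included the lectin-type surface protein gene Clec14a (-3.60), the adhesion gene Icam2 (-3.38) and Cd34 (-3.26). With normexp 9 of the 10 were lower, with a median of -1.94, and Clec14a was at -1.58. All 7 transcription factors of the endothelial list were lower, with a median of -3.10, led by Hey1, a Notch target (-4.60), Sox18 (-3.16) and Erg, an ETS factor (-3.14). With normexp 6 of the 7 were lower, with a median of -1.80, Hey1 at -2.73 and Erg at -1.54. Of 5 genes of arteries and veins 4 were lower, namely Sema3g, a semaphorin of arterial endothelium (-4.95), Efnb2, the arterial ephrin (-3.77), Gja4, the connexin that accompanies connexin 40 (-3.05), and Dll4, an arterial Notch ligand (-2.60, or -1.17 with normexp). Ephb4, the receptor that pairs with Efnb2 and marks veins, was 2.52-fold higher in EGFP+ (1.33 ± 0.19, limma adjusted p = 7.09e-05) and higher in all 4 mice. Bmx was too dim, and no probe was found for Lyve1.

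The listed ligands of endothelial receptors, not all of them ligands of members, did not move as one group. Of 8 tested, 5 were lower in EGFP+, 1 was higher and 2 did not pass, with a median of -1.58 (-1.42 with Tgfb1 at its bound). With normexp 3 were lower and 2 higher, with a median of -0.27. The summed signal of the 8 in EGFP+ was 113%, 99.96%, 117% and 109% of that in EGFP-. Angpt2, the angiopoietin that endothelium itself releases, was lower with a log2 difference of -4.69 (-2.98 with normexp). Vegfc, a ligand of Flt4 and Kdr, was at -3.93 (-2.60 with normexp). Tgfb1 was at least 3.26-fold lower, a call lost with normexp (-0.11, adjusted p = 0.853). Vegfb, a ligand of Flt1, was 3.92-fold higher (1.97 ± 0.25, limma adjusted p = 3.47e-05). Vegfa, the main ligand of Kdr, was close between fractions at -0.29 ± 0.12 (limma adjusted p = 0.0562), lower in 4 of 4 mice and past the threshold with the mouse as a block (adjusted p = 0.0182) or with normexp (-0.42, adjusted p = 0.0459), and with median centring of the arrays it was at -0.14 (adjusted p = 0.44). Angpt1, which activates Tek, stood at 0.42 (adjusted p = 0.355) and passed as higher with normexp (0.75, adjusted p = 0.0332), and Gdf2 was too dim.

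Most markers of other cells were lower in EGFP+ tubules too. Summed over the 15 tested member probes on a linear scale, EGFP+ tubules held 7.14%, 10.97%, 7.43% and 8.49% of the signal of their own EGFP- fraction in mice 1 to 4. The sums themselves, in units of the array's upper quartile, ran from 5.12 to 6.99 in EGFP+, from 47.5 to 85.6 in ALL and from 60.2 to 97.9 in EGFP-. For podocytes, the epithelial cells around the glomerular capillaries, all 10 markers were lower in EGFP+ with a median of -6.13. Among them Nphs1 (nephrin) was at -6.47 and the transcription factor gene Wt1 at -7.05 (-4.46 with normexp), and the summed podocyte signal in EGFP+ was 2.86% to 3.87% of that in EGFP-. For 1 of the 10 podocyte markers no EGFP+ array was well above background, so its value is a bound. The podocyte median was the same with that bound. Of 9 mesangial, smooth muscle and renin cell markers 8 were lower (median -3.86, or -3.31 with Des at its bound), among them Pdgfrb at -5.03 and Itga8 at -6.39, and their sum was 14.7% to 15.6% of EGFP-. With normexp 7 of these were lower, with a median of -2.01, and the call of Des was lost (-1.33, adjusted p = 0.0503). The part of these cells in the endothelial result was not tested.

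Of 4 fibroblast markers 3 were lower (median -3.44, or -3.18 with Pdgfra at its bound of 20.7-fold), and Col1a1 was at -0.65 (limma adjusted p = 0.369). With normexp 2 were lower with a median of -1.34, Pdgfra was at -2.20 and Col1a1 at 0.82 (adjusted p = 0.147). Their sum in EGFP+ was 3.42% to 7.81% of that in EGFP-. Of 9 leukocyte markers 6 were lower (median -1.77), among them Ptprc (CD45) at -2.22 and Lyz2 at -4.90, while Csf1r was at -0.26 (limma adjusted p = 0.499), and their sum was 7.60% to 14.4% of EGFP-. For 1 of the 9 the value is a bound, as no array of its lower fraction was well above background. Leaving out mouse 1, 2 or 3 left 4 leukocyte markers lower each time, and normexp left 3, with a median of -0.16 and Ptprc at -1.31. The 3 tested red cell markers were lower with a median of -5.44, the globin genes Hbb-bt at -5.76 and Hba-a1 at -5.44 among them. For 1 of the 3 no EGFP+ array was well above background, so its value is a bound. The 1 tested platelet marker, Itga2b, was at -2.48, a call lost with normexp (-0.45, adjusted p = 0.339). The 8 proximal tubule markers were lower with a median of -4.97. Among them were the phosphate transporter gene Slc34a1 (-4.72) and the megalin gene Lrp2 (-4.59), both fitted without mouse 2 in ALL and EGFP-, and Slc5a12, a lactate transporter gene (-5.51). The part of these cells in the endothelial result was not tested either.

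**Figure D4:**
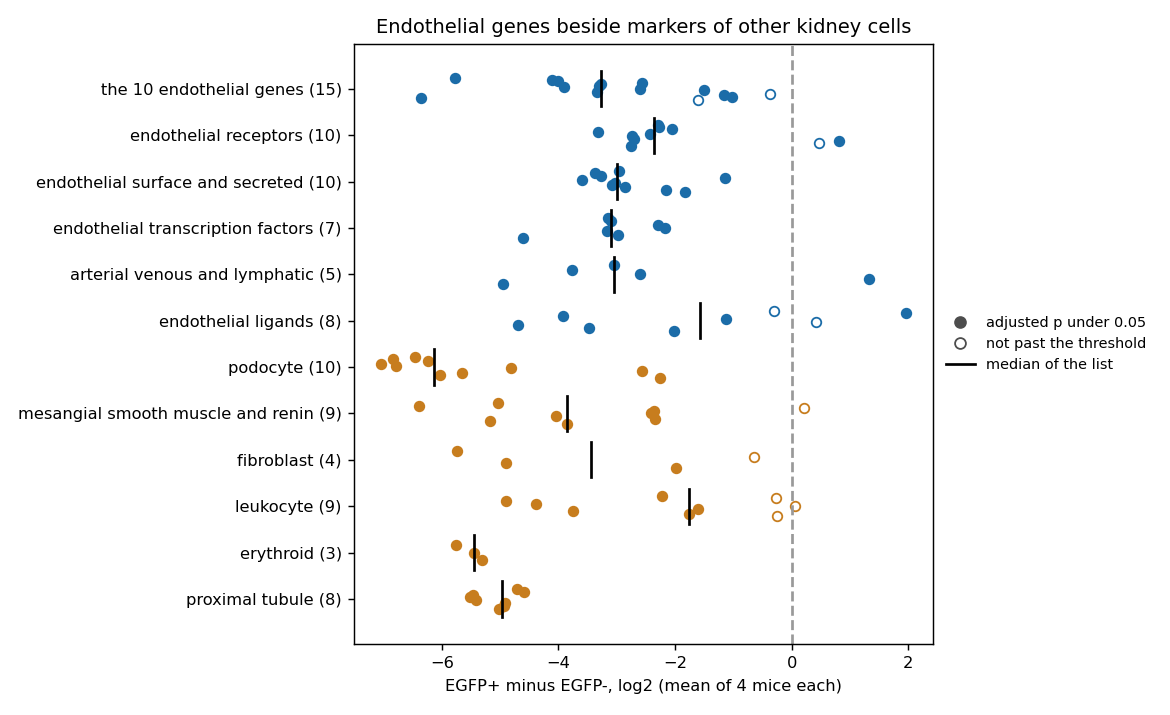
EGFP+ minus EGFP- (log2) for each tested member probe (top) and for each tested gene of the lists drawn, with the number tested in brackets. Points are from the means of 4 mice each, or of fewer for some proximal tubule genes. Filled points were past the threshold, and a line marks the median of each list. The DCT and platelet lists are not drawn. The member median of -3.26 lay between those of podocyte markers (-6.13) and further endothelial receptors (-2.36), and Ephb4, Vegfb and Ramp2 were the filled points above 0.

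How alike the members were to each other was described over the 12 arrays, which share fractions, mice and slides. The correlation of a probe with the mean profile of the probes of the other 9 genes was at least 0.92 for 10 of the 15 probes, with 0.998 for Cdh5 A_52_P248604 as the highest. The others were Gja5 A_52_P496163 (0.886), Tek A_52_P234087 (0.814), Gja5 A_51_P333216 (0.812), Gja5 A_52_P612636 (0.640) and Plvap (0.601). Among 20140 probes of other named genes that were well above background on at least 8 arrays, the 10 with the profile most like the members' mean were those of Cmtm3, Foxc1, Cd300lg, Robo4, 4933417E01Rik, Mrg1, Centd3, Amph, 1110006O17Rik and Anxa2, with r from 0.998 to 0.999. A profile of this kind was common, since 2467 of these probes had r above 0.9. Robo4 is also in the receptor list, at -2.42 between EGFP+ and EGFP-.

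For a comparison of the sexes, the 3 fractions of a mouse were averaged, which left 2 values per sex. The level was lower in males for 14 of the 15 probes, with a median difference of -0.45 against 0.02 over all tested probes, and Gja5 A_52_P496163 was the exception (0.06). None passed the threshold by limma (lowest adjusted p = 0.193, for Ehd3), where 1.05% of all tested probes did, and 7 had an unadjusted p under 0.05, as 19.3% of all tested probes had. Both males lay below both females for 10 of the 15 probes, and the share of all tested probes with this order was not computed. Mouse 4, a male whose arrays were the dimmest, was the lowest of the 4 mice for 13 probes, and the part of array brightness in this difference was not tested. Ehd3 illustrates the size, with 2.98 and 2.86 in females and 2.51 and 2.38 in males.

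The gap between EGFP+ and EGFP- itself was also compared between the sexes. It was the smaller one in males for 12 of the 15 probes (median 0.41 against -0.02 over all tested probes). None passed by limma (lowest adjusted p = 0.395), where 0% of all tested probes did, and 2 members had an unadjusted p under 0.05, where 11.4% of all tested probes had. Mouse 2, a male, had the smallest per-mouse median deficit (-2.73) and mouse 4, also male, had -3.23, close to the females.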

How the data were processed

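The deposited scanner files hold 1-colour Agilent arrays of design 014868 read with Feature Extraction 9.5.3.1, per the file headers. Per the labels' protocols, total RNA was amplified linearly and carried the dye Cy3. The processed signal used here is an intensity that the authors' scanner software had already background-corrected. The authors' deposited value table was not used here.

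Spots of a probe were averaged and outlier-marked spots left out. The log2 of the deposited intensity was scaled by each array's 75th percentile. Probes that cleared background on 4 or more of the 12 arrays were tested with limma 3.58.1 in R 4.3.3, 1 coefficient per fraction, with Benjamini-Hochberg adjustment over 25819 probes and a threshold of 0.05. The fit of the fractions was tested on simulated data with independent arrays, so effects shared by a mouse or a slide were not part of that test. Replicates are separate mice, and all 3 fractions come from the same 4 animals, per the labels. Deviations of same-mouse arrays correlated at 0.225 to 0.807, so the mouse block is a paired analysis. The number of arrays limits the precision.

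Every member probe is reported. Of the other endothelial and ligand lists, up to 3 genes with the largest called difference are named and every gene higher or not past the threshold, and of other cells' lists the first 2 and the largest, except 1 gene that is not reported here. Dll4, the fourth called arterial gene, and Des, given at a bound, were named after their values were seen. Where a list gene had several tested probes, the brightest stands for it. The members and lists were chosen with earlier results of these data known.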

Additional observations from a re-analysis of the deposited data

Results flagged for a closer look

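Of 90 groups of 4 values tested (45 of levels and 45 of per-mouse differences), 5 held a value far from the other 3, and chance gives about 1 in 20, or 4.5. Plvap in EGFP+ tubules was at -0.99 in mouse 4 against -0.25 to -0.23 in the others. Plvap in EGFP- tubules was at -0.52 in mouse 4 against 0.04 to 0.16. The Ehd3 difference between EGFP+ and EGFP- was -4.33 in mouse 1 against -4.04 to -4.03. The Ehd3 difference between ALL and EGFP- was -0.43 in mouse 4 against -0.26 to -0.22. The Cdh5 A_51_P309056 difference between ALL and EGFP- was -0.58 in mouse 4 against -0.33 to -0.30.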

How the results depend on the processing

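The alternatives were median centring, quantile normalization, normexp background correction, no filter or a filter of 8 arrays, outlier spots kept, the mouse or slide as a block, only the 2 fractions compared, and leaving out each mouse. The number of member probes lower in EGFP+ than in EGFP- ran from 10 (normexp) to 15 (mouse or slide as a block) of the 14 to 17 tested, with 13 to 14 when a mouse was left out, and 0 were higher in any. Against ALL it ran from 10 to 14. Scaling moved the median of all probes for EGFP+ against EGFP- from 0.14 to 0.20 (quantile), 0.30 (median centring) and 0.34 (normexp). With the mouse as replicate block no call given above changed other than those of Plvap, Gja5 A_52_P612636 and Vegfa. With normexp the Gja5 A_51_P333216 difference turned to 0.75, the median member difference was -1.99, and the causes were not tested.

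Counts over all probes moved more. For EGFP+ against ALL, normexp gave 7859 probes past the threshold in place of 13931. For ALL against EGFP- the count of 279 became 184 with normexp, 153 with only the 2 fractions, and 103 to 330 when 1 mouse was left out (139, 103 and 114 without mice 1, 2 and 3). For males against females the count of 272 became 842 with median centring, 4781 with normexp, 53 without a filter and 30 to 51 when 1 mouse was left out. Member probes lower in males numbered 4, and higher 1, with normexp, in place of 0. For the sex dependence of the EGFP+ and EGFP- gap, 19 probes passed with median centring and 11 with quantile normalization in place of 0. Leaving out a mouse there leaves 1 sex with 1 mouse, assumed to vary like the others. Probes near background, such as both dim Gja5 probes and Tek A_52_P234087, set the limit of what their signal can show.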
